A study of Mus musculus with 8 samples.

Results

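The unfolded protein response and the integrated stress response were followed through 35 genes, chosen by name from the 17068 genes of the deposited table, and all 35 were found there. They comprise 14 chaperones and folding enzymes of the endoplasmic reticulum (ER), 4 genes of the stress sensors and their transcription factors, 7 genes of ER-associated degradation (ERAD) and 10 genes of the Atf4 branch. RNA-seq was made from osteoblastic cells (OBCs), the cells that lay down bone matrix, sorted fresh from digested long bones of female C57BL/6J mice of about 10 weeks. The tested mice had B-ALL, leukemia of B-cell precursors, positive for the BCR-ABL fusion kinase (4 libraries), and the controls were healthy mice (4 libraries). The labels give no genetic alteration of the bone cells in either group, and how the leukemia was established, how OBCs were gated and whether a library holds 1 animal or a pool are not given in the sources used here. P-values therefore measure the spread between these libraries, which may be technical.

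Cells that secrete much protein, such as osteoblasts with their collagen, rely on ER chaperones to fold it. When unfolded protein builds up, the sensors Ire1 (gene Ern1), Atf6 and Perk (gene Eif2ak3) are released. Ire1 splices Xbp1 mRNA into the form that encodes an active transcription factor, cleaved Atf6 enters the nucleus, and Perk phosphorylates the initiation factor eIF2 alpha, which lowers general translation while the transcription factor Atf4 is translated more. Kinases that sense amino acid lack, double-stranded RNA or haem lack reach Atf4 by the same phosphorylation, which is why that branch is called the integrated stress response. Much of this control acts on proteins and on splicing. The table has 1 value per gene, so activation of the sensors and the spliced form of Xbp1 were not measured.

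Values are FPKM, fragments scaled to transcript length and to all mapped fragments of the library, which allow levels of different genes to be set side by side. Of the 35 genes, 33 had 1 FPKM or more in 4 or more of the 8 libraries, and these were tested with limma on log2(FPKM + 1) beside 11214 genes in all, with Benjamini-Hochberg adjustment over all of them. Fold changes are leukemic minus control on that scale, on which changes of low genes come out too small. Summed FPKM ran from 456191 to 632055 in leukemic and from 477127 to 500933 in control libraries, and 10911 to 11162 genes reached 1 FPKM in a library. Read depth is unknown. Leukemic libraries 1 and 2 were richer in short transcripts than the rest: the Spearman rho of a gene's deviation with transcript length was -0.289 and -0.305 there, and from -0.082 to 0.298 in the other 6 libraries. The sorted cells carried osteoblast markers. The sum of 8 of them (Col1a1 and Bglap among them) was 20010 to 25990 FPKM in leukemic and 24230 to 29570 FPKM in control libraries. Of these 8 genes, 1 had a higher mean in leukemic libraries. Summed markers of other cell types were lower, at 48.77 to 89.12 and 51.23 to 90.85 FPKM for 6 plasma cell genes, 20.61 to 53.33 and 19.98 to 41.18 FPKM for 11 B-lineage genes, and 71.18 to 162.7 and 68.71 to 90.69 FPKM for 6 macrophage genes, leukemic range first in each pair. Higher means in leukemic libraries were found for 8 of the B-lineage, 2 of the plasma cell and 2 of the macrophage genes. Of 3 pan-leukocyte genes all 3 had higher leukemic means, with sums of 2.33 to 7.55 and 2.03 to 4.98 FPKM. Sums of 5 neutrophil genes were 9.83 to 51.04 and 10.88 to 62.79 FPKM, again leukemic first, and 2 genes had higher leukemic means. For 3 osteoclast genes the sums were 244.8 to 336.5 FPKM in leukemic and 207.7 to 305 FPKM in control libraries. Sums of 4 erythroid genes varied most, at 3.11 to 1339 FPKM in leukemic and 20.07 to 578.5 FPKM in control libraries. None of these genes was at 0 in all 8 libraries. In sorted bulk samples, fewer cells of a type and less RNA per cell cannot be told apart.

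Targets of these pathways share short promoter elements. The ER stress element (ERSE, the letters CCAAT and CCACG with 9 bases between them), bound by Atf6 and the factor NF-Y, and ERSE-II (ATTGG and CCACG with 1 base between them) were searched on both strands in the 250 bases before each start in the RefSeq promoter table of GRCm38.p6. The unfolded protein response element (UPRE, TGACGTGG) and the C/EBP-Atf response element bound by Atf4 (CARE, TGATGNAA) were searched in the same way. The table held 31 of the 35 genes. ERSE was found before 9 of them (Hspa5, Hsp90b1, Pdia6, Calr, Canx, Dnajc3, Creld2, Syvn1 and Derl3), against 0.13% of all 27025 genes in the table. ERSE-II was found before Herpud1 alone (0.037% of all genes), CARE before Asns, Chac1 and Herpud1 (3.91% of all genes), and UPRE before none (0.603% of all genes). A match of letters is a description and says nothing of binding in these cells. The windows of 5 genes are shown because they hold the elements of the most abundant chaperone (Hspa5), of 2 ERAD genes (Syvn1 and Herpud1) and of an amino acid enzyme (Asns), with that of Dnajb11, which had the smallest p of the 35 genes. Sequences run 5′ to 3′ on the gene's strand and end 1 base before the start, and capitals mark the motif matches. The motifs do not overlap in these windows.
Hspa5, chr2:34771840-34772089, plus strand, ERSE in capitals: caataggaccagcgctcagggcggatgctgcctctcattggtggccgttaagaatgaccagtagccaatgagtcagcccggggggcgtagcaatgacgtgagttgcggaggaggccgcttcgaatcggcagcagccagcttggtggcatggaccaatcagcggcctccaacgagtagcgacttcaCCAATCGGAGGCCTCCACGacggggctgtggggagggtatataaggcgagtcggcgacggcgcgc
Syvn1, chr19:6046326-6046575, plus strand, ERSE in capitals: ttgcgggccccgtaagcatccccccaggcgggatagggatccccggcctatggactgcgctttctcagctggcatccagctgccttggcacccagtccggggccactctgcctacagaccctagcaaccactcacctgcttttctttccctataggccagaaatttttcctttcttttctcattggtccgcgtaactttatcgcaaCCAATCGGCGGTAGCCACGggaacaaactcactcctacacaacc
Herpud1, chr8:94386179-94386428, plus strand, CARE then ERSE-II in capitals: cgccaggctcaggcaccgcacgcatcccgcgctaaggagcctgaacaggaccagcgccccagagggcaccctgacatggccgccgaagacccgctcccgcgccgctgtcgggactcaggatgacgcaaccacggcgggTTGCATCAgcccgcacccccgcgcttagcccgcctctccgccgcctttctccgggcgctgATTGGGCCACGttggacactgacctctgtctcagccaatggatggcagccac
Asns, chr6:7693210-7693459, minus strand, CARE in capitals: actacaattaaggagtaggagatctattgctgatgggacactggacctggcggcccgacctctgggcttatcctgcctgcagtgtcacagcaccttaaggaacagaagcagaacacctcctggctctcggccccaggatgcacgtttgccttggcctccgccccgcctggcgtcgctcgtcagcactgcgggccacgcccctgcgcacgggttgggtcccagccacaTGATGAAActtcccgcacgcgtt
Dnajb11, chr16:22857595-22857844, plus strand, no match: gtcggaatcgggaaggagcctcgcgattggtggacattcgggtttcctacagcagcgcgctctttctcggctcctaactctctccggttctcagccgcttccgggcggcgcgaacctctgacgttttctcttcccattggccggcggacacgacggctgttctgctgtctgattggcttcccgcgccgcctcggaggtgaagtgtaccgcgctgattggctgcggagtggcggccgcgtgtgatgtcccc
The ERSE of Hspa5 lay 65 to 47 bases before the start and that of Syvn1 44 to 26 bases before it. In Herpud1 the ERSE-II lay at 52 to 42 bases and the CARE at 112 to 105 bases before the start, and the CARE of Asns at 23 to 16 bases.

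**Figure D1:**
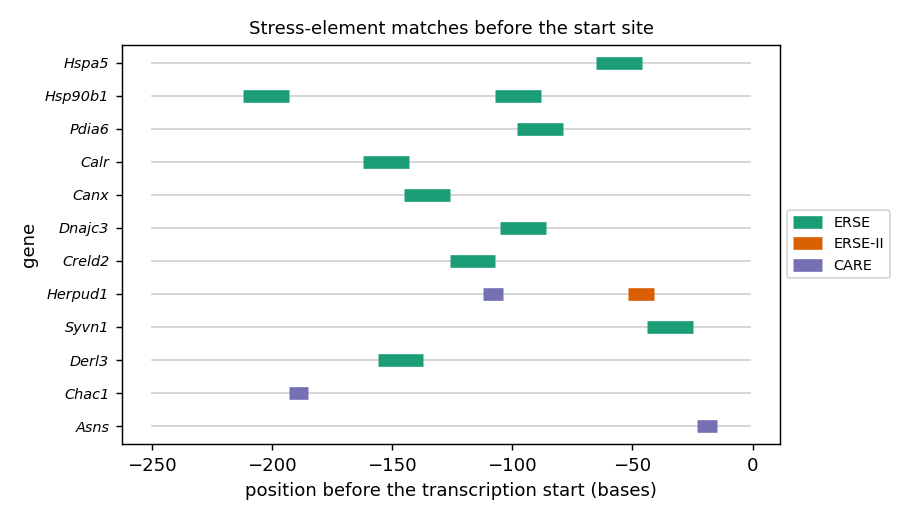
Positions of motif matches (bars) in the 250 bases before the transcription start (horizontal axis, bases) of the 12 genes with a match (rows). ERSE matches of 9 genes lie between 212 and 26 bases before the start, and Hsp90b1 holds 2 of them.

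Across the 33 genes tested, differences between leukemic and control OBCs were small and mostly toward lower levels in leukemic cells, and none passed. At an adjusted p under 0.05, limma called 0 of the 33 (0% of all genes tested), and the lowest adjusted p among them was 0.688. Without adjustment, 2 genes had a p under 0.05 (6.62% of all genes tested). Both, Dnajb11 and Edem1, were lower in leukemic libraries, where the background was 4.13%, and 0 genes were higher, where it was 2.49%. The 2 groups did not overlap in 3 genes with lower leukemic values (Dnajb11, Edem1 and Xbp1), against 2.9% of all genes tested, and in 0 genes with higher leukemic values, against 0.954%. The median fold change was -0.15 on the log2 scale, with 24 of 33 genes negative (72.7%), whereas over all genes tested the median was -0.025, with 53.6% negative. Rescaling each library to a fixed total (TPM) moved the median of the 33 genes to -0.284 and that of all genes to -0.15. With quantile normalization the median was -0.277 for the 33 genes and -0.046 for all genes. With the trend with transcript length removed in each library the median was -0.083 for the 33 genes and 0.019 for all genes. Lower genes of the 33 at an unadjusted p under 0.05 numbered 4 with TPM (6.47% of all genes tested), 4 with quantile normalization (4.06%), 4 of 35 without the low-value filter (3.74%) and 5 with array weights (7.7%).

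**Figure D2:**
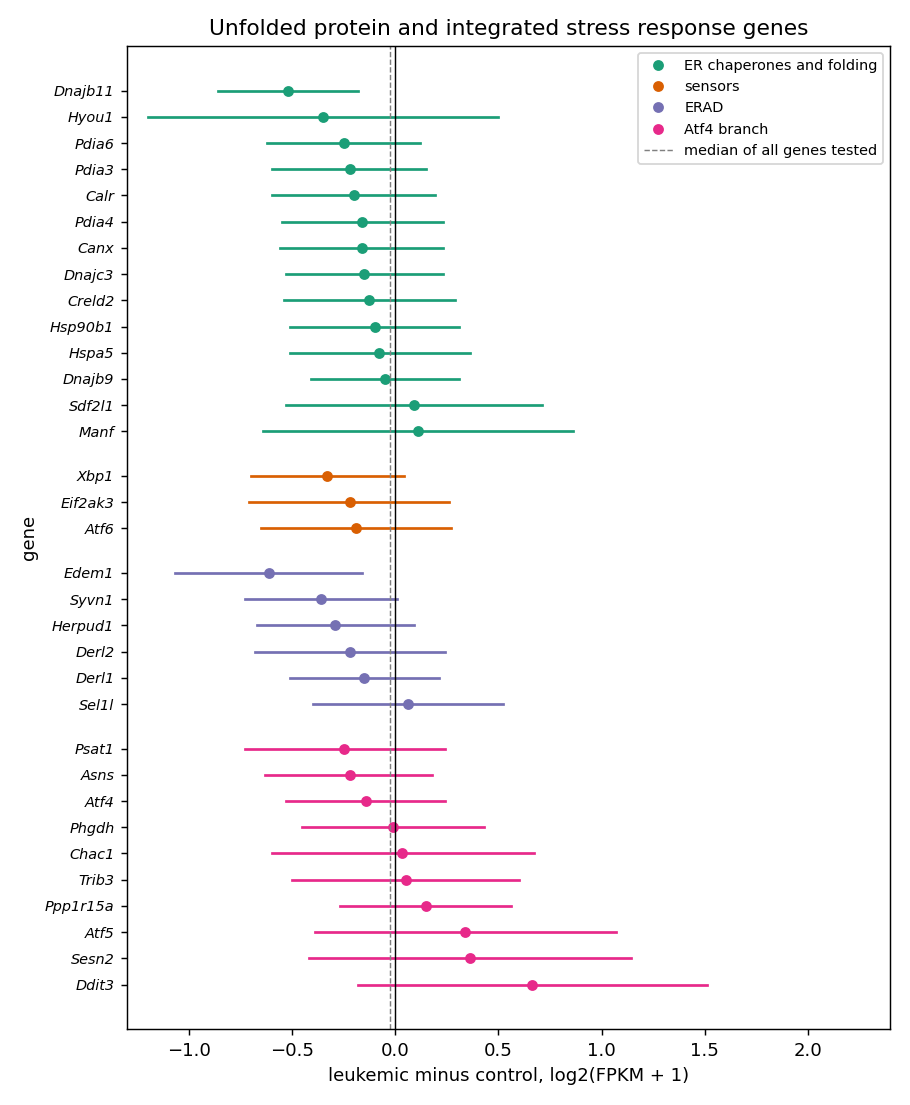
Fold change of each tested gene (points, leukemic minus control, log2(FPKM + 1)) with its 95% interval from limma (lines), grouped by role and sorted within it. The intervals of Dnajb11 and Edem1 lie below 0 and the other 31 include 0, and the dashed line is the median of all genes tested (-0.025). Genes whose direction turned under another scaling are Sdf2l1, Manf, Sel1l, Trib3, Chac1 and Ppp1r15a.

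ER chaperones and folding enzymes were among the abundant transcripts of these cells, and 12 of the 14 had lower means in leukemic OBCs, with none passing. The median log2 fold change was -0.151; it was -0.083 without leukemic library 1, -0.099 without control library 4, -0.089 with the length trend removed, and -0.285 with TPM. Hspa5 (gene ID 14828), which encodes BiP, the Hsp70 of the ER that holds the 3 sensors inactive, was the most abundant of all 35 genes and ranked 40 among the 17068 genes of the table. Hspa5 stood at 1292, 1251, 1289 and 1498 FPKM in leukemic libraries 1 to 4, and at 1412, 1126, 1429 and 1714 FPKM in control libraries 1 to 4. The groups overlapped widely, with control library 2 the lowest of all 8. Its fold change was -0.08 (SE 0.20; 95% interval -0.51 to 0.36; limma adjusted p = 0.937), and it turned to 0.01 with the length trend removed.

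Dnajb11 (gene ID 67838; GRCm38.p6 chromosome 16, 22857845 to 22879634) encodes ERdj3, a soluble co-chaperone that hands unfolded chains to BiP. Dnajb11 stood at 53.8, 65.6, 58.2 and 70.8 FPKM in leukemic libraries 1 to 4, and at 88.6, 89.0, 91.4 and 86.1 FPKM in control libraries 1 to 4. All leukemic libraries were below all control libraries, which were close to each other. The mean was 62.1 ± 7.59 FPKM in leukemic and 88.8 ± 2.18 FPKM in control libraries (SD, n = 4 each). The fold change was -0.52 (SE 0.15; 95% interval -0.86 to -0.18; limma adjusted p = 0.688). Its SD within groups on the log2 scale was 0.13, lower than in all but 2.3% of genes tested. Over 21 alternative fits the fold change ran from -0.67 to -0.45, and the lowest adjusted p, 0.0907, was reached without leukemic library 4.

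Pdia6 and Pdia3, protein disulfide isomerases, which make and rearrange disulfide bonds, had the next smallest p-values of this role. Pdia6 (gene ID 71853) stood at 376, 346, 378 and 440.5 FPKM in leukemic libraries 1 to 4, and at 428, 417, 496 and 493 FPKM in control libraries 1 to 4. Leukemic library 4 reached into the control range and the other 3 leukemic libraries were below it, and the fold change was -0.25 (SE 0.17; limma adjusted p = 0.703). Pdia3 (gene ID 14827), the isomerase that works with calnexin and calreticulin on glycoproteins, stood at 474, 569, 519 and 582 FPKM in leukemic libraries, and at 602, 602, 579 and 725 FPKM in control libraries, each in the order 1 to 4. Only leukemic library 4 exceeded a control library, and the fold change was -0.22 (SE 0.17; limma adjusted p = 0.734). Pdia4, an isomerase with several thioredoxin domains, averaged 177.5 ± 34.1 FPKM in leukemic and 195.7 ± 13.5 FPKM in control libraries. The lectin chaperones that retain unfinished glycoproteins were similar in size of difference. Calr, calreticulin, averaged 309.8 ± 43.3 FPKM in leukemic and 356 ± 40.8 FPKM in control libraries, and Canx, calnexin, 153.8 ± 24.8 FPKM in leukemic and 171.6 ± 19.6 FPKM in control libraries. Hsp90b1, which encodes Grp94, the Hsp90 of the ER, averaged 348.4 ± 39.6 FPKM in leukemic and 376.4 ± 62.6 FPKM in control libraries.

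Other co-chaperones and small stress-induced ER proteins also differed little, or varied much more from library to library. Dnajb9, encoding ERdj4, a co-chaperone that represses Ire1, averaged 151.6 ± 19.9 FPKM in leukemic and 156.4 ± 10.4 FPKM in control libraries, with a fold change of -0.05 (95% interval -0.41 to 0.31). Of its 31-base subsequences, 10.8% also occur in transcripts of the predicted gene Gm6568, so its value is less certain. Dnajc3, encoding p58IPK, which acts with BiP and inhibits eIF2 alpha kinases, averaged 47.67 ± 6.06 FPKM in leukemic and 52.9 ± 6.89 FPKM in control libraries. Creld2, an ER protein with isomerase activity, averaged 97.94 ± 9.31 FPKM in leukemic and 108.2 ± 21 FPKM in control libraries. Both genes had overlapping groups.

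Manf and Sdf2l1 were the 2 chaperone genes with positive fold changes. Manf, a secreted stress-induced protein that binds BiP, stood at 161.7, 215.6, 100.7 and 64.7 FPKM in leukemic libraries 1 to 4, and at 148.7, 104.9, 110.8 and 96.1 FPKM in control libraries 1 to 4. Leukemic library 2 was the highest and leukemic library 4 the lowest of all 8, so the leukemic libraries enclosed the control range. The median length of annotated Manf transcripts, 545 bases, is shorter than in all but 2.5% of genes tested. The Manf fold change of 0.11 (SE 0.34) turned to -0.10 with the length trend removed and to -0.02 with TPM. Without leukemic libraries 1 and 2 it was -0.49. The part of transcript length in the Manf values was not tested. Sdf2l1, a partner of ERdj3 in the BiP cycle, averaged 69.94 ± 25.3 FPKM in leukemic and 63.81 ± 14.9 FPKM in control libraries, and its fold change of 0.09 turned to -0.04 with TPM. Hyou1, encoding Grp170, the nucleotide exchange factor of BiP, was low at 3.96, 1.41, 4.00 and 8.81 FPKM in leukemic and 8.22, 4.44, 4.97 and 4.16 FPKM in control libraries, each in the order 1 to 4. Leukemic libraries 2 and 4 were the lowest and the highest of all 8 for Hyou1, whose fold change of -0.35 (SE 0.38) had the widest interval among the chaperones. Without leukemic library 2 the Hyou1 fold change was -0.01, without control library 1 -0.16 and without leukemic library 4 -0.68.

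**Figure D3:**
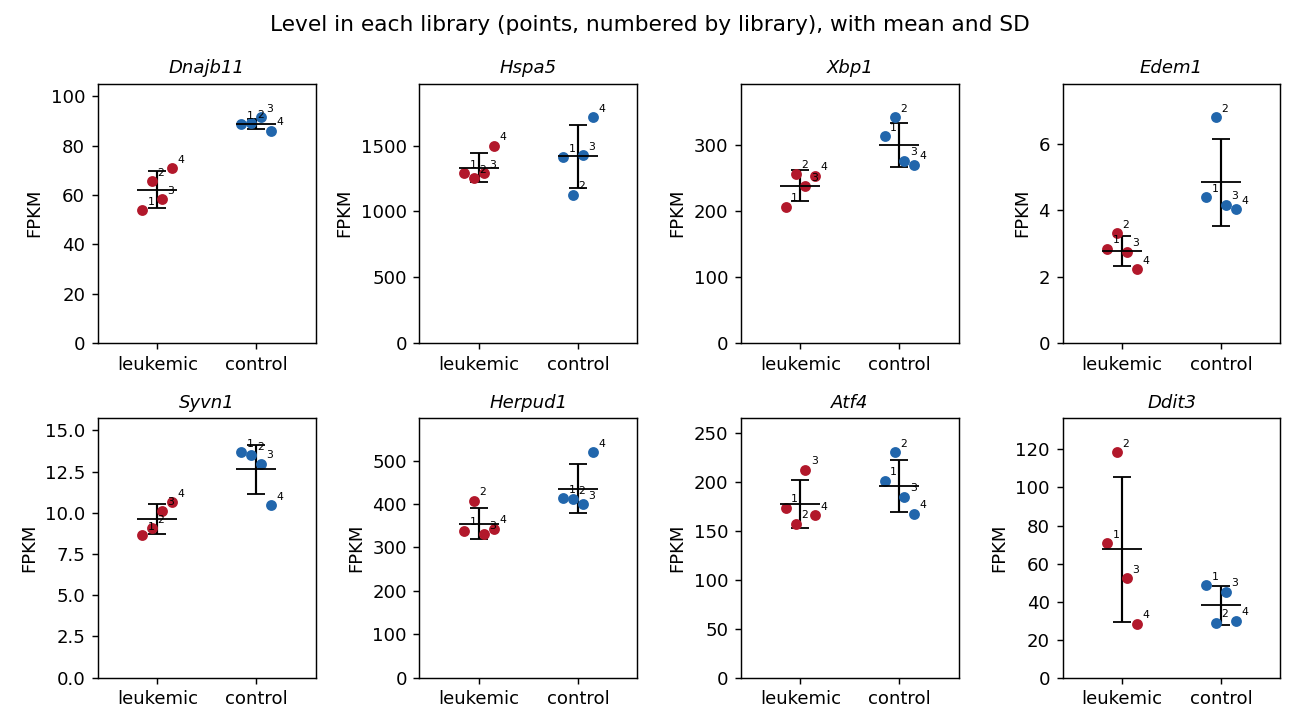
Level in FPKM (vertical axis, from 0) of 8 genes in each library (points, numbered), leukemic left and control right, with the group mean (long bar) and SD. Dnajb11, Edem1 and Xbp1 show no overlap between groups, while Ddit3 spreads over the leukemic libraries, highest in library 2 at 119 FPKM.

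Of the sensors, Xbp1 was abundant and the 3 sensor genes themselves were low, and all 3 tested genes of this role had negative fold changes. Xbp1 (gene ID 22433; chromosome 11, 5520641 to 5525993), the transcription factor that drives chaperone, ERAD and secretory genes once spliced, stood at 206, 256, 238 and 253 FPKM in leukemic libraries 1 to 4. Control libraries 1 to 4 held 313, 341, 276 and 269.9 FPKM of Xbp1. All leukemic libraries were below all control libraries, with leukemic library 2 and control library 4 closest. The leukemic mean of 238.3 ± 23 FPKM was 79.4% of the control mean of 300.1 ± 33.5 FPKM, a fold change of -0.33 (SE 0.17; 95% interval -0.70 to 0.04; limma adjusted p = 0.695). The median length of its annotated transcripts is 1099 bases, and with the length trend removed the fold change was -0.40 (limma adjusted p = 0.709).

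Ern1, the gene of Ire1, was at 0.50, 0.13, 0.92 and 1.13 FPKM in leukemic libraries 1 to 4, and at 0.90, 0.39, 0.74 and 0.17 FPKM in control libraries 1 to 4. It was too low to be tested, and the groups overlapped over most of their range. Atf6 stood at 3.70, 6.26, 4.27 and 6.39 FPKM in leukemic libraries and at 5.61, 5.35, 7.04 and 5.70 FPKM in control libraries, each in the order 1 to 4. Leukemic libraries 1 and 3 were the lowest for Atf6, and its fold change was -0.19 (SE 0.21; 95% interval -0.65 to 0.27). Eif2ak3, the gene of Perk, stood at 4.32, 4.30, 3.17 and 5.36 FPKM in leukemic libraries and at 3.38, 5.75, 5.68 and 6.05 FPKM in control libraries, again in the order 1 to 4. Control library 1 lay within the leukemic range for Eif2ak3 and the other 3 control libraries above it, and the fold change was -0.22 (SE 0.22; limma adjusted p = 0.803).

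ERAD genes, whose products pull misfolded proteins out of the ER and mark them for the proteasome, had lower leukemic levels in 5 of 6 genes tested, with a median fold change of -0.26. The mean of log2(FPKM + 1) over these 6 genes was 4.81, 4.92, 4.95 and 4.93 in leukemic libraries 1 to 4, against 5.19, 5.18, 5.14 and 5.15 in the control libraries in the same order. Leukemic values all lay below control values, while the mean over all genes tested was 3.51, 3.58, 3.54 and 3.43 in leukemic and 3.58, 3.49, 3.48 and 3.43 in control libraries. No p is given for this mean, because the genes were chosen with results of these data known. The median ERAD fold change ran from -0.39 to -0.21 over 21 alternative fits, its most negative value with TPM, and it was -0.35 without leukemic library 2.

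Edem1 (gene ID 192193; chromosome 6, 108824045 to 108859356), which trims mannose from misfolded glycoproteins and so commits them to degradation, is a known target of spliced Xbp1. Edem1 stood at 2.84, 3.30, 2.75 and 2.22 FPKM in leukemic libraries 1 to 4, and at 4.40, 6.80, 4.17 and 4.03 FPKM in control libraries 1 to 4. The groups did not overlap, and control library 2 stood above the other 3 control libraries. The leukemic mean of 2.78 ± 0.443 FPKM was 57.3% of the control mean of 4.85 ± 1.31 FPKM (SD, n = 4 each), the lowest ratio among the 35 genes. The fold change was -0.61 (SE 0.20; 95% interval -1.07 to -0.16; limma adjusted p = 0.695), and -0.47 without control library 2 or with the length trend removed.

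Syvn1, encoding Hrd1, the ubiquitin ligase at the centre of ERAD, stood at 8.63, 9.08, 10.1 and 10.6 FPKM in leukemic libraries 1 to 4, and at 13.7, 13.5, 13.0 and 10.5 FPKM in control libraries 1 to 4. Only control library 4 fell within the leukemic range. The fold change was -0.36 (SE 0.17; limma adjusted p = 0.695), and the gene overlaps Mrpl49, whose reads an unstranded library cannot tell apart. Herpud1, a stress-induced membrane protein that organises the Hrd1 complex, was the most abundant ERAD gene. Herpud1 stood at 339, 408, 329.9 and 343 FPKM in leukemic libraries and at 413, 411, 399 and 519.5 FPKM in control libraries, each in the order 1 to 4. Leukemic library 2 exceeded control library 3 and the rest did not overlap, and the fold change was -0.29 (SE 0.17; limma adjusted p = 0.697). Sel1l, the partner that stabilises Hrd1, averaged 32.77 ± 7.57 FPKM in leukemic and 31.01 ± 5.24 FPKM in control libraries, and its fold change of 0.06 turned to -0.07 with TPM. The derlins, membrane proteins of the retrotranslocation channel, were set apart by level. Derl1 averaged 68.5 ± 8.66 FPKM in leukemic and 75.89 ± 6.53 FPKM in control libraries, and Derl2 averaged 21.72 ± 5.62 FPKM in leukemic and 25.15 ± 3.71 FPKM in control libraries. Derl3, a derlin abundant in secretory cells such as plasma cells and pancreas, was too low to be tested, at 1.22, 1.49, 0.77 and 0 FPKM in leukemic and 0.16, 0, 0.99 and 2.61 FPKM in control libraries, each in the order 1 to 4. It was listed at 0 in 1 library of each group.

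**Figure D4:**
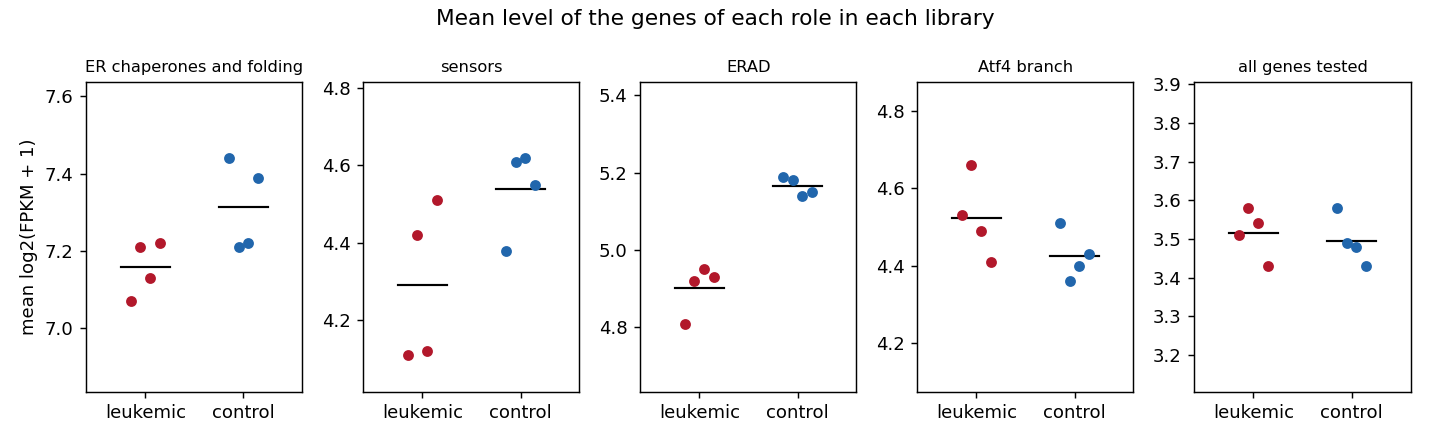
Mean log2(FPKM + 1) over the tested genes of each role and over all genes tested (panels) in each library (points), leukemic left and control right, with bars at group means. Each panel spans the same 0.8 log2 units, the ERAD means do not overlap between groups, and the Atf4 branch has the higher mean in leukemic libraries on the deposited scale, while its median fold change turned to -0.069 with TPM.

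In the Atf4 branch, 4 of 10 genes had negative fold changes and none passed. The median log2 fold change was 0.042, and it turned to -0.069 with TPM, -0.024 without leukemic library 2 and -0.016 without control library 2. Atf4 (gene ID 11911), the transcription factor of the branch, stood at 173, 157, 212 and 166 FPKM in leukemic libraries 1 to 4, and at 201, 230.0, 185 and 167 FPKM in control libraries 1 to 4. The groups overlapped, and the fold change was -0.14 (SE 0.17; 95% interval -0.53 to 0.24; limma adjusted p = 0.85). The level of Atf4 mRNA does not report how much of it is translated.

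Ddit3 (gene ID 13198; chromosome 10, 127290793 to 127296291), encoding Chop, a transcription factor linked to cell death under lasting ER stress, had the highest positive fold change of the 33 genes. Ddit3 stood at 70.7, 119, 52.4 and 28.3 FPKM in leukemic libraries 1 to 4, and at 48.6, 28.9, 45.15 and 29.9 FPKM in control libraries 1 to 4. Leukemic libraries 1, 2 and 3 lay above every control library, and leukemic library 4 was the lowest of all 8. The leukemic mean of 67.46 ± 38.2 FPKM and the control mean of 38.15 ± 10.2 FPKM (SD, n = 4 each) gave a fold change of 0.66 (SE 0.38; 95% interval -0.18 to 1.51; limma adjusted p = 0.695). It was 0.05 without leukemic libraries 1 and 2, 0.34 without leukemic library 2 and 1.01 without leukemic library 4 (limma adjusted p = 0.106). With the length trend removed it was 0.50. The median length of annotated Ddit3 transcripts, 745 bases, is shorter than in all but 9.3% of genes tested. Of the 7 tested members under 1200 bases, 3 (Ddit3, Manf and Sdf2l1) were higher in leukemic libraries 1 and 2 than in libraries 3 and 4. Xbp1, Atf4, Asns and Phgdh were lower there. Among all genes tested of that length, 1824 of 2691 were higher, and among the 26 longer members 9 were. The part of transcript length in the Ddit3 values was not tested. Leukemic libraries 1 and 2 also had the highest summed macrophage markers (136.2 and 162.7 FPKM; 2 of the 6 genes had higher leukemic means), and their 4 erythroid markers summed to 286.5 and 1339 FPKM, against 51.7 and 3.11 FPKM in leukemic libraries 3 and 4, and 20.07 to 578.5 FPKM in control libraries. In the other marker lists, leukemic libraries 1 and 2 were not both above leukemic libraries 3 and 4. In leukemic libraries 1 to 4, B-lineage sums were 21.49, 53.33, 25.15 and 20.61 FPKM. Plasma cell sums were 48.77, 65.06, 76.49 and 89.12 FPKM, and neutrophil sums 10.91, 51.04, 9.83 and 34.73 FPKM, in the same order. The part of any of these markers in the Ddit3 values was not tested. Ddit3 overlaps Mars1 and Mbd6 in the annotation, and reads from these genes cannot be told apart by strand.

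Ppp1r15a, encoding Gadd34, which recruits a phosphatase to eIF2 alpha and restores translation, was the most abundant gene of the branch and ranked 97 in the table. Ppp1r15a stood at 605, 592, 626 and 629 FPKM in leukemic libraries 1 to 4, and at 526, 436, 694 and 591 FPKM in control libraries 1 to 4. The leukemic libraries lay within the control range, with an SD of 17.6 FPKM in leukemic and 109 FPKM in control libraries. Its fold change of 0.15 (SE 0.19) turned to -0.05 with quantile normalization.

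The amino acid enzymes under Atf4 were near their control levels or below them. Asns, asparagine synthetase, stood at 30.6, 38.8, 35.02 and 42.6 FPKM in leukemic libraries and at 38.6, 45.1, 36.1 and 52.9 FPKM in control libraries, each in the order 1 to 4. Leukemic libraries 1 and 3 were below all control libraries for Asns, and the fold change was -0.22 (SE 0.18; limma adjusted p = 0.758). Psat1, a serine synthesis aminotransferase, stood at 3.77, 4.50, 7.60 and 6.50 FPKM in leukemic libraries and at 6.66, 5.86, 6.77 and 7.25 FPKM in control libraries, again in the order 1 to 4. Leukemic library 3 was the highest of all 8 for Psat1 and leukemic library 1 the lowest, and the fold change was -0.25 (SE 0.22; limma adjusted p = 0.773). Phgdh, the first enzyme of serine synthesis, averaged 21.17 ± 3.14 FPKM in leukemic and 21.46 ± 4.51 FPKM in control libraries, but 55.8% of its 31-base subsequences are shared with other genes, so its value is uncertain.

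The remaining stress-induced genes of the branch varied widely. Sesn2, a leucine sensor that restrains mTORC1, averaged 13.14 ± 5.17 FPKM in leukemic and 9.89 ± 3.85 FPKM in control libraries, with a fold change of 0.36 (SE 0.35) that ran from 0.14 without control library 2 to 0.65 without leukemic library 2. Atf5, a transcription factor under Atf4 that drives the mitochondrial stress response, averaged 3.82 ± 1.97 FPKM in leukemic and 2.75 ± 1.25 FPKM in control libraries, and its fold change of 0.34 turned to -0.07 without leukemic libraries 1 and 2. Trib3, a pseudokinase under Chop, averaged 2.31 ± 0.591 FPKM in leukemic and 2.27 ± 1.05 FPKM in control libraries. Chac1, a glutathione-degrading enzyme, averaged 5.29 ± 2.11 FPKM in leukemic and 5.07 ± 1.73 FPKM in control libraries. The fold changes of Trib3 (0.05) and Chac1 (0.03) turned to -0.05 and -0.09 with TPM. None of these 4 genes had separate groups, and their intervals include changes in either direction.

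**Figure D5:**
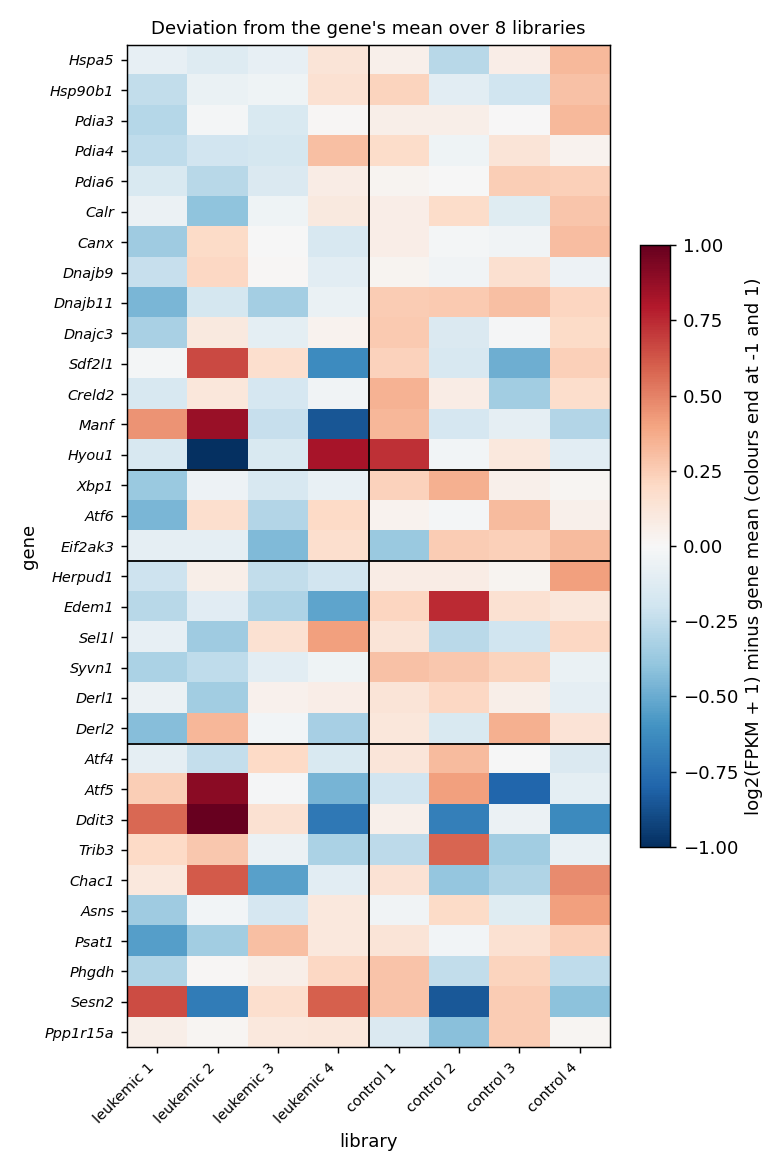
Deviation of each tested gene (rows, ordered by role: chaperones, sensors, ERAD, Atf4 branch) from its own mean over 8 libraries (columns, leukemic left and control right), in log2(FPKM + 1), red above and blue below the mean, with colours ending at -1 and 1. Leukemic library 1 is lowest for 14 of 33 genes (16.9% of all genes tested). Leukemic library 2 is highest for 6 of 33, Manf, Atf5 and Ddit3 among them (20.8% of all genes tested).

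Some libraries were low or high for many of the 33 genes at once. Leukemic library 1 held the lowest value of all 8 for 14 of 33 genes (42.4%), against 16.9% of all genes tested. Control libraries 1 and 4 each held the lowest value for 0 of 33, against 3.0% and 12.1% of all genes tested. Without leukemic library 1 the median of the 33 genes was -0.093, with 24 still negative. Control library 4 held the highest value for 8 genes (24.2%), against 11% of all genes tested. The summed level of the 14 chaperone genes was 3587, 3832, 3708 and 4124 FPKM in leukemic libraries 1 to 4, and 4254, 3751, 4034 and 4745 FPKM in control libraries 1 to 4. The leukemic and control ranges of that sum overlapped, and it made up 0.606% to 0.904% of all FPKM in leukemic and 0.762% to 0.994% in control libraries. The 8 tested genes with an ERSE before the start had negative fold changes, none of which passed, from -0.36 (Syvn1) to -0.08 (Hspa5), with a median of -0.155. The 18 tested genes with a promoter in the table and no ERSE, ERSE-II or CARE ran from -0.61 (Edem1) to 0.66 (Ddit3), with a median of -0.095 and 11 negative. The 8 ERSE genes are all chaperone or ERAD genes, whereas the 18 also hold Atf4 branch genes such as Ddit3 and Sesn2 (0.36). Among the 18, the chaperone and ERAD genes ran from -0.61 (Edem1) to 0.09 (Sdf2l1), a range that encloses that of the ERSE genes. Element and role cannot be told apart in these sets. The difference between the sets was not tested, and with the length trend removed Hspa5 was at 0.01.

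Genes of the same pathways outside the 35 also had mostly negative fold changes that did not pass. Of 38 other unfolded protein response genes tested, 0 passed at the adjusted threshold, 4 were lower (4.13% of all genes tested) and 0 higher (2.49%) at an unadjusted p under 0.05, and 30 had negative fold changes (53.6% of all genes tested), with a median of -0.12. Creb3l1, encoding Oasis, an ER-anchored transcription factor that promotes type I collagen expression in mouse osteoblasts, had the smallest p of that list. Creb3l1 stood at 24.3, 26.4, 27.8 and 33.5 FPKM in leukemic libraries 1 to 4, and at 40.05, 60.3, 41.15 and 41.0 FPKM in control libraries 1 to 4. All leukemic libraries were below all control libraries, with a fold change of -0.67 (SE 0.19; limma adjusted p = 0.631). Pdia5, another disulfide isomerase, averaged 22.61 ± 3.31 FPKM in leukemic and 35.04 ± 6.02 FPKM in control libraries, a fold change of -0.61 (limma adjusted p = 0.695). Marchf6, a ubiquitin ligase of the ER membrane, averaged 3.66 ± 0.844 FPKM in leukemic and 6.24 ± 1.75 FPKM in control libraries. These 3 genes, named for the smallest p of the list, were the 3 of its 38 genes with all leukemic libraries below all control libraries. Over all genes tested that share was 2.9%.

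Of 34 other genes of the Atf4 and amino acid response tested, 0 passed at the adjusted threshold, 2 were lower and 0 higher at an unadjusted p under 0.05, and 24 had negative fold changes, with a median of -0.11. The shares over all genes tested were 4.13% lower, 2.49% higher and 53.6% negative, and the 1 gene of this list with separate groups stood against 2.9% of all genes tested. Slc7a5, a transporter of large neutral amino acids, averaged 1.11 ± 0.169 FPKM in leukemic and 2.26 ± 0.687 FPKM in control libraries, with no overlap of the groups and a fold change of -0.61 (SE 0.20; limma adjusted p = 0.695). Pycr1, the last enzyme of proline synthesis, averaged 55.79 ± 13.9 FPKM in leukemic and 75.15 ± 7.5 FPKM in control libraries. Eprs, the tRNA synthetase for glutamate and proline, averaged 42.22 ± 4.95 FPKM in leukemic and 55.12 ± 8.37 FPKM in control libraries, with overlapping groups for Pycr1 and Eprs alike.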

How the data were processed

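RNA from FACS-sorted OBCs of collagenase-digested long bones (RNA integrity number above 6.5) was amplified with SMART-Seq v4, which does not mark strand, per the labels' protocols. Per the submitters' processing notes, GRCm38.p6 was the genome build, and the tools included RSEM 1.2.8, Bowtie2 2.2.5, HISAT2 2.0.4 and DESeq2; their settings are not given in the sources used here. The authors deposited FPKM with 2 decimals for 17068 genes. The group means and the log2 ratio that the authors deposited beside them were not used. RSEM shares out fragments that match several genes, which makes the values of near-copies uncertain. Of the 31-base subsequences of Derl1, 8.6% also occur in Gm35638. Besides Syvn1 and Ddit3, the genes Hspa5, Pdia3, Pdia6, Atf6, Derl2, Atf5 and Ppp1r15a overlap another gene of the table. Reads of overlapping genes cannot be told apart by strand. Low values between leukemic library 1 and the others formed no steps of single reads (at most 2.83% of genes in 1 bin of 0.03 log2 units), so depth is unknown and no count model was run.

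Libraries were grouped by the title in the labels. Genes with 1 FPKM or more in 4 or more libraries (11214) were compared on log2(FPKM + 1) with limma 3.58.1 (R 4.3.3), moderated variances with a mean-variance trend, no covariates, two-sided, Benjamini-Hochberg adjustment over all genes at 0.05. The limma step was tested on simulated data with 200 changed genes. That simulation drew independent noise for each gene and library, without the length trend seen here, so it does not show the power in these data. Transcript lengths are medians over GENCODE M21 protein-coding transcripts (99.1% of genes tested), and promoters come from RefSeq. Such a median can differ from the length of the form expressed in these cells. The 35 genes, their roles, the further lists and the tests were chosen with earlier results of these data known. Values in every library are given for the sensors, for Atf4, Ddit3, Xbp1 and Hspa5, and in each other role for the most abundant gene and the 3 (ERAD 2) of smallest p; those of Manf, Hyou1 and Derl3 were added after their values were seen. From the further lists the 3 genes of smallest p are named. The alternatives comprised TPM, quantile normalization, a 5 FPKM filter or none, pseudocounts of 0.1 and 0.5, array weights, untrended and robust variances, a block for the replicate number, removal of the length trend in each library (lowess, span 0.3) with and without the block, leaving out each library, and leaving out leukemic libraries 1 and 2.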

Additional observations from a re-analysis of the deposited data

Results flagged for a closer look

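Among 70 groups of 4 libraries (35 genes in each of 2 conditions), 6 held a library whose gap to its nearest neighbour, as a share of the group's range, exceeded Dixon's 95% critical value for 4 samples, where chance flags about 1 in 20. In leukemic libraries these were Hspa5, highest in library 4 at 1498 FPKM with the next at 1292 FPKM (gap share 0.836), and Pdia4, highest in library 4 at 228 FPKM with the next at 164 FPKM (0.879). In control libraries these were Pdia3 (0.842) and Herpud1 (0.887), both highest in library 4, Edem1, highest in library 2 (0.866), and Eif2ak3, lowest in library 1 at 3.38 FPKM with the next at 5.68 FPKM (0.861).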

How the results depend on the processing

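None of the 33 genes passed the adjusted threshold in any of the 21 alternatives, and 20 of them kept their direction in every alternative. Lower genes at an unadjusted p under 0.05 numbered 2 (4.13% of all genes tested). They numbered 4 without the filter (3.74%), with TPM (6.47%) and with quantile normalization (4.06%), and 5 with array weights (7.7%). Leaving out 1 library gave 2 to 3 lower genes, against 2.8% to 4.99% of all genes tested. Higher genes then numbered 0 to 1. The 1 was found without leukemic library 4, where 1237 of all 11214 genes tested were higher at that p. Correlations of same-numbered deviations were 0.122, -0.047, -0.072 and 0.22, and those of differently numbered libraries ran from -0.295 to 0.217. So few values cannot decide whether the replicate numbers pair the libraries. With the replicate block the counts of the 33 genes stayed at 2 lower and 0 higher. Over all genes, 633 were then higher and 405 lower at an unadjusted p under 0.05, against 279 and 463 without the block. Median fold changes moved with TPM to -0.285 (chaperones), -0.393 (ERAD) and -0.069 (Atf4 branch), and with quantile normalization to -0.286 and -0.339 for the first 2 of these; leaving out 1 library gave -0.196 to -0.083 (chaperones), -0.318 to -0.126 (sensors), -0.348 to -0.211 (ERAD) and -0.024 to 0.106 (Atf4 branch). Directions turned with TPM for Sdf2l1 (-0.04), Manf (-0.02), Sel1l (-0.07), Trib3 (-0.05) and Chac1 (-0.09), and with quantile normalization for Sdf2l1 (-0.06), Manf (-0.04), Sel1l (-0.02) and Ppp1r15a (-0.05). They turned with array weights for Manf (-0.09) and Chac1 (-0.32), and with the length trend removed, with or without the replicate block, for Hspa5 (0.01) and Manf (-0.10). Without leukemic libraries 1 and 2 they turned for Hsp90b1 (0.00), Sdf2l1 (-0.19), Manf (-0.49), Hyou1 (0.16), Atf5 (-0.07), Trib3 (-0.16), Chac1 (-0.31), Psat1 (0.08) and Phgdh (0.13). Leaving out 1 library gave ranges across 0 for Hspa5 (-0.19 to 0.02), Dnajb9 (-0.13 to 0.01), Sdf2l1 (-0.12 to 0.31), Manf (-0.16 to 0.42), Sel1l (-0.06 to 0.19), Trib3 (-0.06 to 0.25), Chac1 (-0.16 to 0.22) and Phgdh (-0.09 to 0.09). The cause was not tested. A filter of 5 FPKM left 29 of the 33 genes.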
